A study of Mus musculus with 2 samples.

Results

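The regions described here are stretches of the mouse genome that a promoter array tiles without giving them a gene name. They were measured for Ring1B in embryonic stem (ES) cells. Probes whose name on the array was only a chromosomal position, on chromosomes 1 to 19, were joined into a region where neighbouring probes lay less than 1000 bp apart, and at least 3 probes were needed. This gave 401 regions, 197 on slide 1 and 204 on slide 2, of 19676 tiled regions built in the same way on the numbered chromosomes. The other 19275 carried a gene name and served for comparison. Of the 7626 probes without a gene name, 7451 lay in the 401 regions, and 175 probes in 131 clusters of fewer than 3 probes were left out.

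The DNA came from mouse ES cells, for which the labels name no genotype or treatment. Chromatin was fixed with formaldehyde, precipitated with a monoclonal antibody against Ring1B (IP, Cy5) and hybridised together with input DNA of the same cells (Cy3), both amplified by linker-mediated PCR. The titles name ES cells, whereas the source names begin with the word Muscle, and the titles were followed here. The 2 arrays are the slides of a set with 0 probes in common, slide 1 for the lower-numbered chromosomes and slide 2 for the remainder, so each region was measured once, without a replicate, a dye swap or a mock precipitation. No test of enrichment was possible, and the SD beside a region's mean is the spread over its probes.

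Ring1B (Rnf2) is the catalytic core of Polycomb repressive complex 1 (PRC1), which attaches ubiquitin to histone H2A. In ES cells PRC1 is known for sitting with Polycomb repressive complex 2 at CpG islands of silent developmental regulators, such as homeobox genes. A tiled stretch without a gene name can be the promoter of a gene that the array's annotation did not name, a transcript known only as a cDNA, or DNA between genes.

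The value of a probe is the log2 ratio of IP over input processed signal, minus the median probe of its slide. A region's value is the mean of its probes, and a mean of 1 stands for 2-fold enrichment over the median probe. The medians subtracted were 0.23 on slide 1 and 0.16 on slide 2. Input signal was well above background at 74.1% and 76.3% of the probes of the 2 slides, IP signal at 77.2% and 80.6%, and the scanner software had set both channels to a floor value at 18.2% and 15.5% of probes.

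The probes that carried the highest signal of the 6 highest regions are shown as they stand in the array files, with every CG dinucleotide in capitals, because they differed in CG content. The lowest probe of the lowest region follows for contrast. Neither the strand nor the genome build of these coordinates is stated in the labels or file headers.
H2-K1 region, chr17:32078583-32078627: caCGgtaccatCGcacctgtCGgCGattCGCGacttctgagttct
Region between Zfpm2 and Oxr1, chr15:41445978-41446022: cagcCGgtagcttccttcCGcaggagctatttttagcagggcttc
Region by Hmga1b, chr11:120873665-120873724: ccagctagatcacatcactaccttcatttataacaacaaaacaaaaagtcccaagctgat
Region by Onecut1, chr9:74888284-74888328: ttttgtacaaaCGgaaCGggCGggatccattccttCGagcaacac
Region by Snn, chr16:10735515-10735562: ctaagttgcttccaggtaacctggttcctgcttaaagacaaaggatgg
Region by Serp2, chr14:71241685-71241742: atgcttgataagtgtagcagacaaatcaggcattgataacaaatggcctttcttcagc
Lowest region, by Mgmt, chr7:133294408-133294467: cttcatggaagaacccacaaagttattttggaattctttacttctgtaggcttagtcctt

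The probe by H2-K1 held 6 CG and read 4.53, the one between Zfpm2 and Oxr1 held 2 and read 3.96, and the one by Onecut1 held 4 and read 3.93. The probes by Hmga1b, Snn and Serp2 held 0 CG and read 2.04, 1.88 and 3.17. The probe of the lowest region also held 0 CG and read -5.01. High single probes were thus found both with and without CpG.

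Most regions without a gene name lay close to the array's median. Their median value was -0.11, the middle 50% lay between -0.44 and 0.17, and the extremes were -2.25 and 1.79. Gene-named regions had a median of -0.10. At or above 1 stood 3 of the 401 regions (0.748%, exact 95% interval 0.155 to 2.17%), against 458 of 19275 gene-named regions (2.38%, 2.17 to 2.60%), with 2.34% over all tiled regions. At or below -1 stood 24 regions (5.99%, 3.87 to 8.77%), against 861 gene-named regions (4.47%), with 4.5% over all tiled regions. The intervals cover counting error over regions of 1 array each, and no test across samples was possible. The share at or above 1 minus that of the gene-named regions was -1.63 percentage points, and in the deposited series table it was -0.40 points, with 9 regions at or above 1.

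**Figure D1:**
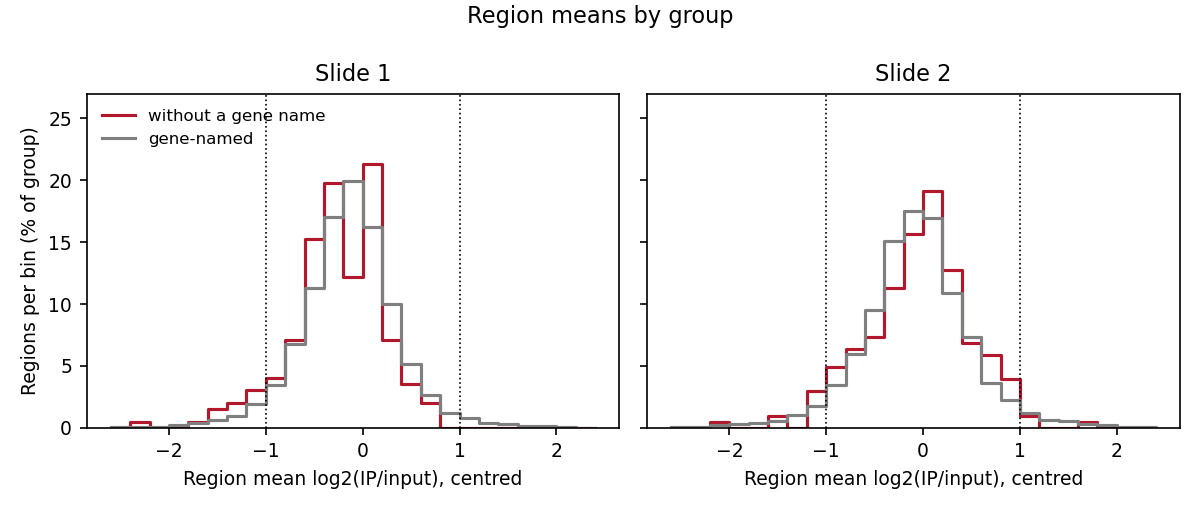
Region means of the 401 regions without a gene name (red) and the 19275 gene-named regions (grey), as the percentage of each group per bin of log2(IP/input), for slide 1 (left) and slide 2 (right). Dotted lines mark -1 and 1; on slide 1 no region without a gene name reaches 1, and on both slides most regions of both groups lie between the lines.

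The slides differed. On slide 2 the median of the regions without a gene name was -0.01 and 3 of 204 reached 1, against a gene-named median of -0.06 with 274 of 9136 (3.00%). On slide 1 the median was -0.24 and 0 of 197 reached 1, which allows a share of up to 1.86% (exact), against a gene-named median of -0.13 with 184 of 10139 (1.81%). At or above 0.5 stood 29 of 204 regions of slide 2 (14.2%), against 1108 of 9136 gene-named regions (12.1%), and 4 of 197 regions of slide 1 (2.03%), against 777 of 10139 gene-named regions (7.66%). At 0.5 the share of regions without a gene name was thus slightly above the gene-named share on slide 2 and below it on slide 1. At 1 it was below on both slides, with 1.47% against 3.00% on slide 2. Whether the slide 2 shares differ beyond counting error was not tested. Of the 20 highest regions, 17 came from slide 2 and 3 from slide 1. By chromosome the medians ran from -0.32 on chromosome 1 to 0.25 on chromosome 18. Since each slide carries its own chromosomes and is 1 hybridisation, slide and chromosome cannot be told apart.

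The number of probes bore on the extremes. Regions without a gene name held a median of 17 probes over 3536 bp, against 22 probes over 5140 bp for gene-named regions. Of the 129 regions with 3 to 9 probes, 2 reached 1 (1.55%) and 21 fell to -1 or lower (16.3%), against 156 (3.59%) and 562 (12.9%) of 4347 gene-named regions. Of the 91 regions with 30 or more probes 1 reached 1 (1.10%) and 0 fell to -1, against 224 (3.37%) and 41 (0.616%) of 6655 gene-named regions. Single probes scattered widely within a region: the median SD within a region was 1.27 in both groups. Neighbouring probes of the same region correlated with Pearson's r of 0.32 over 7050 pairs, against 0.35 over 425284 gene-named pairs, a description in which neighbours share fragments, array and base composition.

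**Figure D2:**
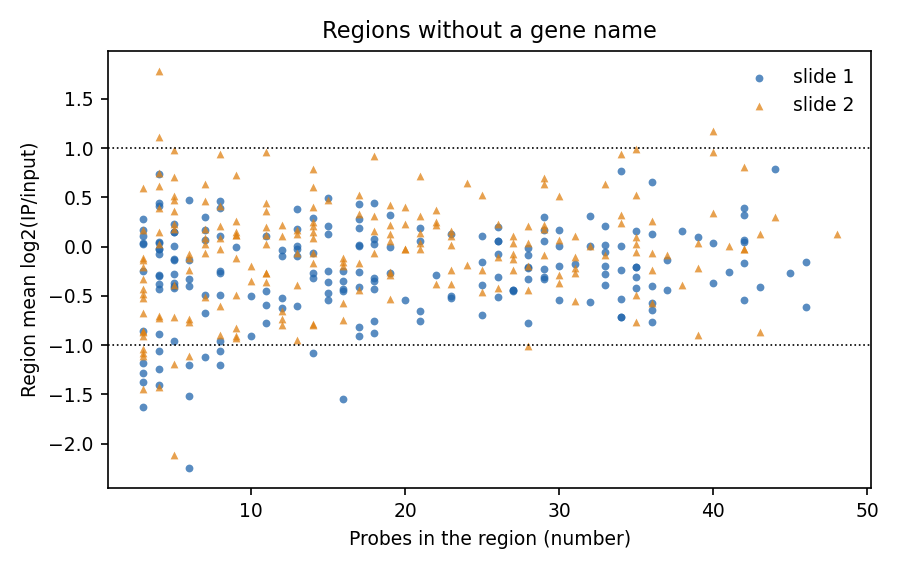
Mean log2(IP/input) of each of the 401 regions without a gene name against its number of probes, slide 1 as blue circles and slide 2 as orange triangles, with dotted lines at -1 and 1. The values fan out below 10 probes, and the region with 40 probes at 1.17 is the only one of 10 or more probes above 1.

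The highest of all was chr17:32078107-32079083, with a mean of 1.79 ± 2.05 (SD over 4 probes). Its probes read 2.04, 4.53, 0.79 and -0.22 in order along the chromosome, so 2 of the 4 carried the mean. The nearest tiled gene, AA388235, lay 17625 bp away and averaged 0.01 ± 0.82 over 8 probes, and the tiled gene on the other side was Ring1, which encodes the other catalytic RING subunit of PRC1. The third probe in order, at 0.79, matched the promoter window of H2-K1, a major histocompatibility complex class I gene that presents peptides to T cells. H2-K1 belongs to a family of similar genes, and binding of DNA from other members to these probes was not tested. Another region of the same family, by sequence at the H2-Q4 promoter, averaged 0.12, with its 2 matching probes at 1.34.

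The second highest was chr15:41442413-41450196, at 1.17 ± 1.27 (SD, 40 probes). Of its 40 probes, 32 were above 0 and 19 at or above 1, and a run of 2140 bp with 12 probes averaged 1.74. It lay between Zfpm2, a cofactor of GATA factors in heart development, and Oxr1, an oxidation resistance gene 332470 bp away that averaged 0.48 ± 1.33 over 38 probes. No RefSeq promoter window matched any of its probes. This was the region with the most probes among those that reached 1.

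The third was chr11:120873665-120874339, at 1.11 ± 0.86 (SD, 4 probes). Its probes read 2.04, 1.63, 0.49 and 0.27, all above 0. The nearest tiled gene was Rfng, a glycosyltransferase of the Notch pathway, 14096 bp away, with a mean of 0.06. The gene between the flanking tiled genes is Hmga1b, a member of the HMGA group of chromatin proteins. A second stretch 1443 bp from it, chr11:120870998-120872221, held the probes that matched the Hmga1b promoter and averaged -0.76 ± 0.56 over 6 probes. When gaps of up to 2000 bp were bridged, both fell into 1 region of 14 probes with a mean of -0.12, so the place of this region above 1 rests on the gap allowed within a region.

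Just under the threshold of 1 stood chr9:74882399-74889627, at 0.99 ± 1.22 (SD, 35 probes), and chr16:10734827-10735562, at 0.98 ± 0.77 (SD, 5 probes). The chromosome 9 region ended 5527 bp from Onecut1, a homeobox transcription factor of liver and pancreas development, whose own 47 probes averaged 1.14 ± 1.40. Of its 35 probes 19 were at or above 1, and 12 probes in a run of 1747 bp averaged 2.03, at the end toward Onecut1. One of its probes matched the promoter of Gm16551, a long non-coding RNA, and read 0.37. The chromosome 16 region lay 75 bp from Snn (stannin), and its probes read -0.11, 1.10, 1.44, 0.60 and 1.88, against a mean of -0.31 for Snn itself.

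Among the next regions by mean, those on chromosomes 18 and 16 had the most probes. The region chr18:55369212-55377009 averaged 0.96 ± 1.13 over 40 probes, with the longest run above 1, 2536 bp of 12 probes at a mean of 1.92. Floor values in both channels filled 32.5% of its probes, and its nearest tiled gene, the kinase gene Csnk1g3, lay 1079397 bp away. The gene between the flanking tiled genes is Zfp608, a zinc finger gene. The region chr16:90191525-90198508, between Tiam1, an activator of Rac, and Sod1, a superoxide dismutase, averaged 0.94 ± 1.30 over 34 probes.

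**Figure D3:**
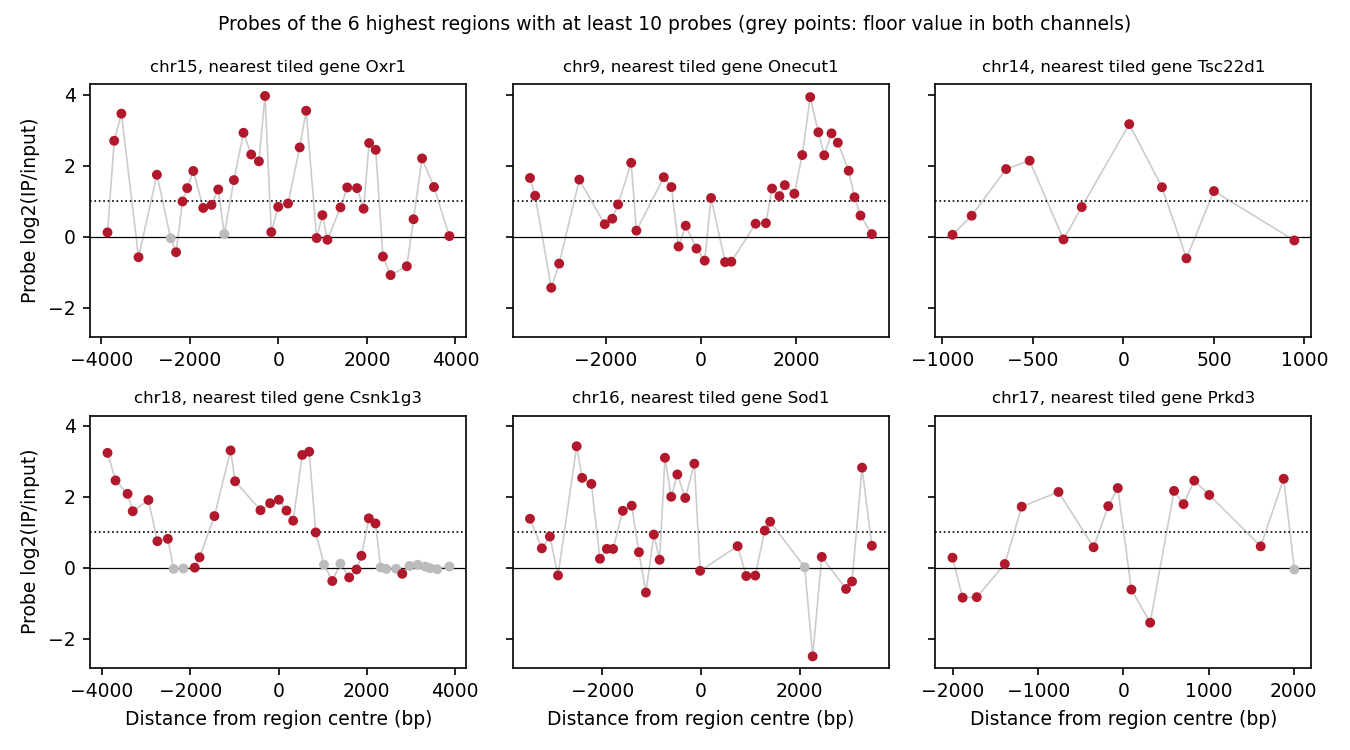
Probe log2(IP/input) against the distance from the region's centre in bp, for the 6 highest regions with at least 10 probes, each with the nearest tiled gene in its title. Grey points are probes at the floor value in both channels, and the dotted line marks 1; the Onecut1 panel has its highest probes, up to 3.93, toward the right end, and the Csnk1g3 panel has most of its grey points at the right end.

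Of the remaining regions among the 20 highest, several could be set beside a gene by a sequence match or by the flanking tiled genes. On chromosome 9, chr9:72957675-72959024 averaged 0.94 over 8 probes between -0.61 and 3.28, 209 bp from Prtg, and 1 probe matched the promoter of Pygo1, a co-activator of Wnt signalling, at -0.30. On chromosome 14, chr14:71240716-71242648 averaged 0.96 ± 1.14 over 11 probes in the gap that holds Serp2. The region before it, which matched the Serp2 promoter by 3 probes, averaged -0.24. On chromosome 17, chr17:77350747-77354820 averaged 0.92 ± 1.32 over 18 probes, in the gap between Prkd3 and Cdc42ep3 that holds the glutaminyl cyclase gene Qpct. On chromosome 2, chr2:118636830-118644679 averaged 0.79 ± 1.56 over 44 probes and matched Bahd1, a heterochromatin protein gene. Its probe at the Bahd1 promoter read -0.22, whereas a run of 2291 bp with 15 probes at one end averaged 2.00.

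The other regions among the 20 highest were mostly short. The region chr16:64715151-64719952, 1540 bp from Zfp654, averaged 0.79 ± 0.85 over 14 probes, and its 2 probes at the promoter of 4930453N24Rik averaged 0.40. The region chr18:47226203-47230009, in the gap between Ap3s1 and Commd10, averaged 0.71 ± 1.49 over 21 probes. The 4 probes of chr10:93153260-93154006, 69 bp from Ccdc38, read 0.09, 1.00, 0.79 and 1.12, all above 0, whereas Ccdc38 itself averaged -0.27. The 4 probes of chr8:123031110-123031695, 61 bp from Pgbd5, read 1.77, -0.05, -0.51 and 1.73, so the mean of 0.73 rested on its outer probes. The region chr10:40356924-40359200, in the gap that holds the carnitine transporter gene Slc22a16, averaged 0.72 over 9 probes with a median of 0.06, and 3 of the 9 were at or above 1. The 5 probes of chr13:18704557-18706252, 54252 bp from Stard3nl, read 1.18, -0.02, -0.03, 2.44 and -0.03, and 60% of them stood at the floor in both channels.

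The region chr1:155701561-155709428 matched the promoter of Lhx4, a LIM homeobox gene of pituitary and motor neuron development. It was the only match to a gene of the chosen developmental lists, which do not hold every homeobox, other transcription factor or signalling gene. Wnt5b and Foxp1, which the lists leave out, matched regions that averaged 0.20 and -0.26. The Lhx4 region averaged 0.77 ± 1.91 over 34 probes, from -3.45 to 3.28, with 18 probes at or above 1 and 5 at or below -1. A run of 1797 bp with 10 probes averaged 2.39, the highest mean among the runs of at least 1000 bp, while the probe in the Lhx4 promoter window read -0.68. The nearest tiled gene by distance was Qsox1, 62986 bp away, at -0.50. Of the 18 probes at or above 1, 17 lay before or within 500 bp after the region's centre, and all 5 at or below -1 lay farther along, from 1453 to 3518 bp past it.

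The region chr13:114231785-114239785 averaged 0.81 ± 1.24 over 42 probes, with 21 probes at or above 1 and a run of 2086 bp at a mean of 1.31. It lay between Isl1, a LIM homeobox gene, and Emb, an adhesion protein gene 184434 bp away, and by sequence it held the promoter of Parp8, a member of the ADP-ribosyltransferase family. Its 2 probes in the Parp8 window averaged 1.21.

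The Parp8 promoter belongs to the region with the highest mean among those of the 20 highest regions that matched a coding promoter by at least 2 probes, and was chosen after the values were seen. Higher promoter probes stood in other regions. It is shown 5′ to 3′ from RefSeq (GRCm38.p6), 250 bp before to 50 bp after the start, with the bases covered by the array's probes in capitals.
Parp8, minus strand, chr13:117025482-117025781: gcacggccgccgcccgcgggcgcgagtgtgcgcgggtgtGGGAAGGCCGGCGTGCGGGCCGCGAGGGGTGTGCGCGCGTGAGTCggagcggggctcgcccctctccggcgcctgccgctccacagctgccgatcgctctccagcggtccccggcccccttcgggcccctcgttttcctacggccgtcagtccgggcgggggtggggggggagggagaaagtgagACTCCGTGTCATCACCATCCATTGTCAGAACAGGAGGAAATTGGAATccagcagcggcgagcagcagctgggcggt

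The motif counted was CG, which reads the same on both strands and cannot overlap itself. The Parp8 window held 37 CG, against a median of 7 over 32851 RefSeq windows of 300 bp. At least as many were held by 5.58% of all windows. The Parp8 window thus held more CG than most, and the probes cover part of it.

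Over all 401 regions, 161 (40.1%) held at least 1 probe with 30 or more consecutive bases in a RefSeq promoter window, and 153 of them matched a protein-coding gene. The matches named 185 genes, 158 of them coding, through 296 probes, and 0 lay on another chromosome than the array states. All 268 probes that matched over their whole length had another start coordinate in GRCm38.p6, so the array's positions are of a different build. Regions with a match had a median of -0.06 and 26 probes, and 1 of 161 reached 1 and 3 fell to -1. Regions without a match had a median of -0.14 and 10.5 probes, and 2 of 240 reached 1 and 21 fell to -1. Over all tiled regions 2.34% reached 1 and 4.5% fell to -1. Of the 24 low regions 21 had 3 to 9 probes, and the part of probe number in this contrast was not tested. The 296 probes in promoter windows averaged -0.02 ± 1.25, and the other 7155 averaged -0.10 ± 1.38 (SD over probes).

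Among the matched genes, some that play a part in Polycomb function or signalling are given here, chosen after their values were seen. The region of Phc2, which encodes a Polyhomeotic subunit of PRC1, averaged 0.20 ± 1.13 over 15 probes, and its promoter probe read 0.07. The region of Wnt5b, a Wnt ligand, averaged 0.20 ± 1.67 over 26 probes, and its promoter probe read 1.55. The region of Eva1c, a Slit-binding receptor gene, averaged 0.63 ± 1.23 over 33 probes, with its 2 promoter probes at 1.72 and a run of 2029 bp at a mean of 1.24. The region of Ctbp2, a transcriptional co-repressor, averaged -0.61 ± 1.41 over 46 probes, with its 2 promoter probes at -0.80. One region held a microRNA hairpin, Mir1931, and averaged -0.07, with the matching probe at 0.33.

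Long runs of signal were rare. Averaging each probe with those up to 500 bp away, a stretch of at least 2000 bp that stayed at or above 1 was found in 5 of 401 regions (1.25%, exact 95% interval 0.406 to 2.89%), against 449 gene-named regions (2.33%, 2.12 to 2.55%), with 2.31% over all tiled regions. Those 5 were the region in the gap that holds Zfp608, the one between Zfpm2 and Oxr1, and those that matched Bahd1, Parp8 and Eva1c by sequence. Runs of the same length at or below -1 were found in 3 regions (0.748%), against 139 gene-named regions (0.721%), with 0.722% over all tiled regions. All 5 regions with a long run above had 30 or more probes, a class in which 5.49% of the regions without a name and 5.88% of the gene-named ones had such a run.

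CpG content went with the level of single probes in both groups. Probes of the regions without a gene name averaged 0.25 ± 1.18 with 3 or more CG (484 probes), against -0.18 ± 1.35 with 0 CG (4285 probes). Gene-named probes averaged 0.32 ± 1.25 with 3 or more and -0.17 ± 1.36 with 0. Floor values in both channels filled 2.27% of the first class and 22.5% of the second among the probes without a gene name, and their part in the difference was not tested. By region, those with at least 1 CG per probe had a median of 0.08 (86 regions), and gene-named ones 0.06. At or above 1 stood 1 of these 86 regions (1.16%), against 248 of 3878 gene-named regions (6.40%). Spearman's rho between region mean and CG per probe was 0.15 over 401 regions and 0.18 over 19275 gene-named regions, both descriptions over regions that share an array and base composition.

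On slide 1 the array file gives each probe's distance to a transcript start. All 197 regions there carried a cDNA of the Mammalian Gene Collection, a set of full-length cDNA clones, 59 carried an Ensembl transcript as well, and 138 had the cDNA alone. Probes within 500 bp of the start averaged -0.13 in regions without a gene name (132 regions), against 0.03 in gene-named regions (7597 regions). In the bin from -5500 to -4500 bp, upstream of the start, the averages were -0.44 in regions without a gene name and -0.22 in gene-named regions. Regions without a gene name were therefore lower than gene-named ones at both places, and lowest in the bin farthest upstream. Floor values in both channels filled 8.69% of the probes without a gene name near the start and 25.8% of those farthest upstream.

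**Figure D4:**
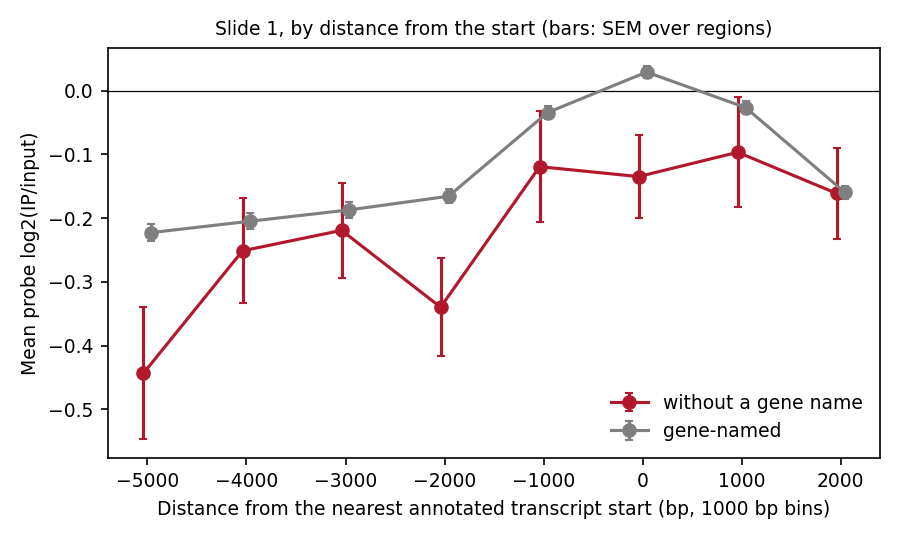
Mean probe log2(IP/input) on slide 1 in 1000 bp bins of distance from the annotated transcript start, for regions without a gene name (red) and gene-named regions (grey), with the SEM over regions as bars. The red points run from -0.44 farthest upstream to -0.10 just inside the transcript, and the grey ones peak at 0.03 at the start.

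The distance to the nearest tiled gene had a median of 37447 bp and reached 1496783 bp, and 56 regions lay under 1 kb from a gene-named probe. The medians by distance were -0.21 under 1 kb (56 regions), -0.02 from 1 to 10 kb (41 regions), -0.13 from 10 to 100 kb (209 regions) and -0.09 beyond (95 regions). The value of a region followed that of its nearest tiled gene weakly or not at all. Spearman's rho was 0.02 and Pearson's r -0.05 over 401 regions, and both were 0.21 over the 56 regions under 1 kb, where region and gene share the slide and adjoining DNA. Of the 20 highest regions, 13 had a nearest tiled gene with a mean below 0. Among all gene-named regions 7776 of 19275 had a mean above 0, so a gene mean below 0 was common.

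**Figure D5:**
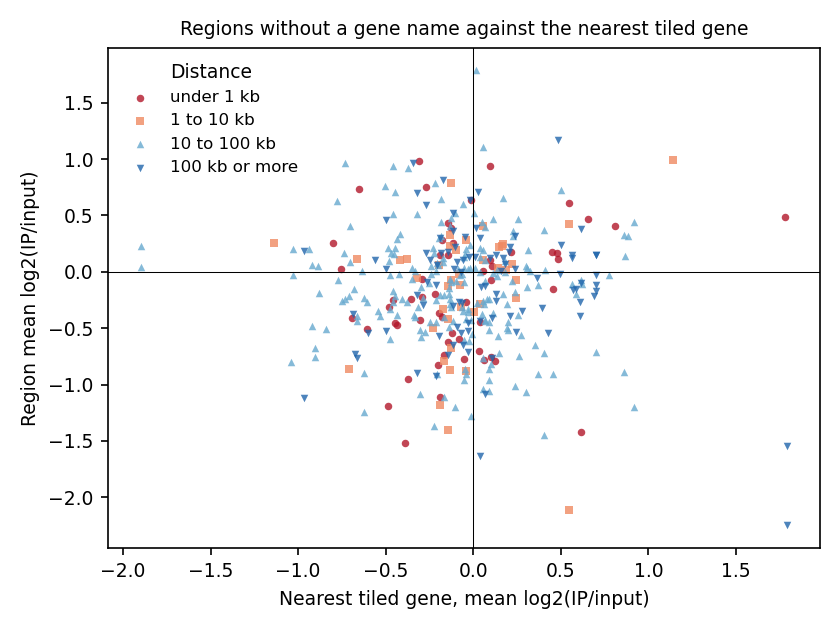
Mean log2(IP/input) of each of the 401 regions without a gene name against that of its nearest tiled gene, by distance class. The points form no line; the 2 points at the lower right are the regions by Mgmt, at -1.54 and -2.25, whose nearest tiled gene Ebf3 averaged 1.79 and lay 416073 and 421648 bp away.

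Few regions had a listed developmental regulator as their nearest tiled gene. The nearest tiled gene was in the developmental lists for 10 of 401 regions, of which 5 neighboured homeobox genes, 4 other transcription factors, 1 a signalling gene and 0 a Hox gene. At or above 1 stood 0 of the 10, where 2.34% of all tiled regions did, so a count of 0 in 10 says little. At or below -1 stood 2 of the 10, where 4.5% of all tiled regions did. Both had Ebf3 as the nearest tiled gene, 416073 and 421648 bp away, and they lay 2503 bp from each other. The lower averaged -2.25. The region by Onecut1 alone was among the 20 highest. The median of the 10 was -0.07, against -0.11 for the regions beside other genes. The region 318 bp from Pax6, a regulator of eye and brain development, averaged 0.49 ± 0.97 over 15 probes, against 1.78 ± 1.10 for Pax6 itself over 64 probes. The region 59944 bp from Sox9, a regulator of cartilage and testis development, averaged -0.03, against 0.77 for Sox9, and held a run of 1150 bp at a mean of 1.88. The 3 regions by Pou4f3, a POU factor of inner ear hair cells, averaged 0.15, 0.12 and -0.11, against 0.56 for the gene. The regions by Nhlh2, a neuronal bHLH gene, and Lfng, a Notch pathway glycosyltransferase, averaged -0.19 and -0.72, against 0.59 and 0.40 for those genes.

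Regions that adjoin each other often had unlike values. In 87 pairs of regions less than 5000 bp apart, 41 had means of the same sign and 46 of opposite sign, and the median difference was 0.54. For scale, the SD over the means of all 401 regions was 0.52. Pairs of gene-named regions were not compared. Many of the pairs held a region of 3 to 9 probes, and the part of probe number was not tested. The largest difference was 2.53, between chr17:57194816-57195537 at -2.11 (5 probes) and chr17:57196548-57199787 at 0.42 (19 probes). They lay 1010 bp apart, and the second was at the Pdzph1 promoter. The third stretch there, at the promoter of the antisense RNA Nudt12os and 82 bp from Nudt12, averaged 0.61 over 4 probes.

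The lowest regions were mostly short. The lowest, chr7:133294202-133295248, averaged -2.25 ± 2.18 over 6 probes, 4 of them between -5.01 and -1.93 and the other 2 at -0.01 and 0.16. Without the 33.3% of its probes at the floor in both channels, this region averaged -3.41 over 4 probes. Its neighbour chr7:133297752-133300823, which matched the promoter of Mgmt, a DNA repair methyltransferase gene, averaged -1.54 ± 1.49 over 16 probes, 11 of them at or below -1, and its 2 promoter probes averaged 0.00. The region on chromosome 17 described above read -3.91, -4.05, -2.70, 0.00 and 0.11. Floor values in both channels filled 40% of its probes, and without them it averaged -3.56 over 3 probes. The region chr6:68612211-68612509 averaged -1.63 over 3 probes, 33.3% of them at the floor in both channels. On chromosome 4, chr4:132600989-132601740, 114 bp from the receptor gene Gpr3, averaged -1.52 ± 0.88 over 6 probes, all below 0. A negative value means a ratio of IP to input below that of the slide's median probe.

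The longest regions had moderate values. The longest, chr15:79244698-79253083 of 8386 bp, averaged -0.22 ± 1.27 over 39 probes. It lay 201 bp from Polr2f, an RNA polymerase subunit gene, in the gap to Pick1 that also holds Sox10, a neural crest regulator. The others averaged 0.30 ± 1.35 on chromosome 17 in the gap that holds Thumpd2, -0.15 at the Rasl11b promoter on chromosome 5, with probes from -3.72 to 2.58, -0.02 ± 1.52 at Nhsl1 on chromosome 10, and -0.61 at Ctbp2. The Rasl11b region held a run of 1217 bp at -2.13 at its first end.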

How the data were processed

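Per the file headers, scanned images were quantified in Agilent Feature Extraction 9.1.3.1. The processed signal of each channel is, per the file headers, an intensity with background removed and dyes balanced by the authors' software, and very dim spots hold a floor value. The deposited log10 ratios were, per the file headers, calculated from red over green signal by the authors' Feature Extraction software before deposit. They were not compared with the processed signals here. The log2 values in the deposited series table were found to be ratios of mean signal, neither background-subtracted nor centred, to within 5e-05.

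Control spots and 141 and 17 outlier probes were left out, leaving 237054 and 237168. Ratios were centred on each slide's median probe. The alternatives were no centring, normexp (offset 50) and loess (limma 3.58.1, R 4.3.3), the deposited series table, probe filters, the median, other gaps, probe minimums and thresholds, and a GC correction. The number of arrays limits the precision.

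Named regions were the 20 highest, 5 lowest and 5 longest, the 10 highest with at least 10 probes and the 2 nearest to 1 on each side, 30 in all. One of them is not reported here. The nearest tiled gene is the one with the closest gene-named probe, and older array names were updated from the RefSeq gene table (GRCm38.p6), which also gave the genes lying between 2 tiled genes. Promoter matches needed 30 consecutive probe bases in a RefSeq window on either strand. The members and gene lists were chosen with earlier results of these data known. The procedure was tested on simulated data.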

Additional observations from a re-analysis of the deposited data

How the results depend on the processing

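The share of regions without a gene name at or above 1 stayed below that of gene-named regions under every alternative listed for it, by 0.40 to 2.01 percentage points. The counts moved. At or above 1, against 3 of 401, stood 11 regions without centring, 9 with normexp, 9 in the centred series table and 5 with loess. The median of the probes gave 6, and thresholds of 0.5 and 1.5 gave 33 and 1. Without probes at the floor in both channels it was 5 of 373 (1.34%), against 3.36% of gene-named regions. With gaps under 500 bp it was 20 of 605 (3.31%), against 3.79%. With at least 5 or at least 8 probes it was 1, of 347 and of 299. At or below -1, against 24, stood 12, 11 and 10 regions without centring, with normexp and in the series table, 43 without probes dim in input, 12 and 5 with at least 5 or 8 probes, 58 with gaps under 500 bp and 10 under 2000 bp, 89 at -0.5 and 5 at -1.5. The low share, 5.99% against 4.47% of gene-named regions, turned round with at least 8 probes, at 1.67% against 2.33%. The cause of the shifts under the signal settings was not tested. The split of 3 high against 24 low regions thus became 11 against 12, 9 against 11 and 9 against 10 under no centring, normexp and the series table. Gene-named regions shifted too, from 2.38% high and 4.47% low. They stood at 3.90% and 2.68% without centring, 2.81% and 1.76% with normexp, and 2.65% and 1.65% in the series table. The median of -0.11 became 0.083 without centring, -0.33 without probes dim in input and -0.0073 by the median of the probes. Of 340 values of named regions under alternatives, 17 moved by over 0.5 (median move 0.05) and 11 changed sign. With gaps under 2000 bp, which join neighbouring stretches, the Hmga1b region turned to -0.12 (14 probes), the chromosome 17 region at -2.11 moved to -0.0044 (28 probes) and the Serp2 region to 0.15 (34 probes). By the median of the probes, the chromosome 13 region by Stard3nl moved to -0.02 and the Lhx4 region to 1.37. The H2-K1 region ranged from 1.41 to 2.15 where it had a value. With 4 probes, it dropped out at minimums of 5 and 8 probes. The region between Zfpm2 and Oxr1 ranged from 0.94 (loess) to 1.33. No paired analysis was possible because the 2 slides share no probe and form 1 group.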

Other observations

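Probes without a gene name also lay outside the numbered chromosomes. On chromosome X, 242 such probes formed 17 regions with a median of -0.03, from -1.18 to 1.18, of which 2 reached 1 and 1 fell to -1. Over all tiled regions of the numbered chromosomes the shares were 2.34% and 4.5%, and counts among 17 regions say little. For mitochondrial DNA, 46 of 47 probes were above 0, at a median of 0.63. These probes formed 1 region, there was no mock precipitation, and the source of their signal was not tested. The 131 clusters of 1 or 2 probes on the numbered chromosomes ranged from -3.63 to 2.79, with 13 at or above 1 and 33 at or below -1.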
